A study of Mus musculus with 14 samples.

Results

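The interleukin 17 (IL-17) receptor family is a set of 5 related cell surface receptors, encoded in the mouse by Il17ra, Il17rb, Il17rc, Il17rd and Il17re. The genes were taken by symbol from a table of 31274 gene symbols measured by RNA sequencing in mouse uterus. All 5 symbols were in the table, and all 5 were among the 14278 genes kept by a filter on low values, 1 FPKM or more in 3 or more libraries. FPKM scales fragments by transcript length and by the library total, so levels of different genes can be set side by side. The family was chosen by values measured in these same libraries, above all the cycle difference of Il17rb in WT. The levels and differences of the 5 receptors are therefore given as a description. No p-value of a single receptor is printed, and counts of receptors past a threshold stand beside the share of all genes, with nothing read from them.

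The uteri came from intact, untreated FVB/N mice aged 2 months. Mice labelled HIF2A cKO gave 3 libraries at estrus and 4 at diestrus, and WT mice gave 3 libraries at estrus and 4 at diestrus. Diestrus is the stage of the cycle under the influence of progesterone, and estrus follows the estrogen peak. Epas1 encodes HIF2A, a transcription factor stabilised when oxygen is low. The label cKO denotes a conditional knockout, and the sources used here do not name its driver or the cells it acts in. The labels do not tell whether each library is 1 animal, so the p-values reflect the spread among these libraries, part of which may be technical.

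Epas1, the check of the genotype labels, was not lower in the knockout libraries. It stood at 45.7, 39.9 and 38.0 FPKM in HIF2A cKO estrus and at 37.3, 35.1, 45.4 and 40.1 FPKM in HIF2A cKO diestrus libraries, against 34.2, 31.2 and 33.3 FPKM in WT estrus and 31.9, 32.7, 43.5 and 31.2 FPKM in WT diestrus libraries. The HIF2A cKO minus WT difference of log2(FPKM + 1) was 0.31 at estrus (SE 0.125, limma adjusted p = 0.605) and 0.18 at diestrus (SE 0.108, adjusted p = 0.227). A level summed over the gene does not show a deleted exon, so every genotype comparison below is between libraries labelled HIF2A cKO and WT. FPKM values summed to between 437879 and 497688 per library, and libraries of the same group correlated across genes with r from 0.956 to 0.994 on the log2 scale. Markers of the uterine epithelium, stroma and myometrium were present in every library. Their summed levels were 513 to 1714 FPKM for 10 epithelial markers, 1785 to 2899 FPKM for 9 stromal markers and 3664 to 6220 FPKM for 7 myometrial markers. The diestrus libraries numbered 3 in both genotypes stood apart from the other diestrus libraries in several markers given below, and results that rest on them are given with and without them.

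IL-17 receptors work as pairs of chains. IL-17RA is the chain that most of the receptors share, pairing with IL-17RC to bind IL-17A and IL-17F, with IL-17RB to bind IL-25, and with IL-17RE to bind IL-17C, while IL-17RB also binds IL-17B. The paired chains recruit the adaptor Act1, which passes the signal through TRAF proteins to NF-kB, MAP kinases and proteins that stabilise messenger RNA, and at mucosal surfaces the response is known for neutrophil chemokines and antimicrobial proteins. IL-17RD, also called Sef, is known as an inhibitor of FGF receptor signalling and as a modulator of IL-17RA.

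The 5 genes lie on 2 chromosomes. In the mm10 build with the GENCODE M21 annotation, Il17ra spans chr6:120463247-120487559 on the plus strand, Il17re chr6:113458484-113470758 and Il17rc chr6:113471427-113483140, both also on the plus strand. Il17rc starts 669 bases after the end of Il17re. Il17rd lies at chr14:27038941-27107286 on the plus strand and Il17rb at chr14:29996135-30008896 on the minus strand. Exons of Actr8, a chromatin remodelling subunit on the opposite strand, cover 141 of the 3707 exonic bases of Il17rb (3.80%), and Chdh, which encodes choline dehydrogenase, starts 127 bases from the start of Il17rb and runs the other way.

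The 250 bases before the RefSeq start (GRCm38.p6) are shown for Il17rb and Il17rc, the pair of receptors that were lower at estrus in both genotypes. The Il17rb window is chr14:30008897-30009146 on the minus strand and the Il17rc window is chr6:113471205-113471454 on the plus strand. Capitals mark the matches to the letters searched.
Il17rb: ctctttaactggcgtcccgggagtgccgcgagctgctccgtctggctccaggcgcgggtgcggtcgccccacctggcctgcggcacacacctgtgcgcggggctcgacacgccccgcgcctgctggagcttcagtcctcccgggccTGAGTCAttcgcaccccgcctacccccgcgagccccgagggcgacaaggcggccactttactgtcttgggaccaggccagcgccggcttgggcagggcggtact
Il17rc: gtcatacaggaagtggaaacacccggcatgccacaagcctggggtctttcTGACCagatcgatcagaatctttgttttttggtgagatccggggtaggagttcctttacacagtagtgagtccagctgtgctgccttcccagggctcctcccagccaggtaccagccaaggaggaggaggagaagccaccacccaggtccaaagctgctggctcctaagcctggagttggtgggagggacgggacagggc
The search read both strands for an estrogen response element (GGTCANNNTGACC), its half-site (GGTCA), a half-site of the progesterone and glucocorticoid receptors (AGAACA), the core of a hypoxia response element (ACGTG) and an AP-1 site (TGAGTCA). The half-site lies within the full element. In the Il17rb window the only match was 1 AP-1 site, 104 bases before the start, which 4.46% of 32851 mouse windows of the same length also held. In the Il17rc window the only match was 1 estrogen response half-site, 200 bases before the start, found in 35.2% of windows. The full estrogen response element was in 0.0639% of windows, the progesterone receptor half-site in 16.1% and the hypoxia core in 16.6%, and none of these was in either window. RefSeq windows were matched for 4 of the 5 members. For Il17rc, Il17rd and Il17re the RefSeq start lies inside the GENCODE span given above. The Il17re window falls wholly inside that span, and those of Il17rc and Il17rd in part. The far end of the Il17rb window lies in Chdh. The Il17re window, not shown, also held 1 estrogen response half-site, 53 bases before the start, and the Il17rd window held no match. Neither of these receptors was lower at estrus. A match describes the letters only.

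Il17rb, the chain for IL-25 and IL-17B, had the widest range of the family. Its level was 1.49, 1.29 and 1.38 FPKM in HIF2A cKO estrus libraries, against 8.06, 9.38, 94.3 and 10.1 FPKM in HIF2A cKO diestrus libraries 1 to 4. In WT it was 3.32, 2.78 and 2.63 FPKM at estrus, against 13.8, 61.3, 95.2 and 13.7 FPKM at diestrus. All estrus libraries lay below all diestrus libraries in both genotypes, and the highest of each diestrus group was the one numbered 3. The difference of log2(FPKM + 1), estrus minus diestrus, was -2.90 (SE 0.799) in HIF2A cKO and -3.12 (SE 0.799) in WT. Without both libraries numbered 3 it was -2.09 (SE 0.424) in HIF2A cKO and -2.61 (SE 0.424) in WT.

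Il17ra, the shared chain, had the largest fitted difference between the genotypes at diestrus of the 5 receptors. At diestrus it stood at 31.2, 27.3, 13.3 and 16.7 FPKM in HIF2A cKO libraries, against 7.28, 9.94, 8.73 and 6.45 FPKM in WT libraries. At estrus it stood at 13.3, 13.3 and 11.9 FPKM in HIF2A cKO libraries, against 10.2, 9.30 and 9.54 FPKM in WT libraries. In both stages every HIF2A cKO library was above every WT library. The HIF2A cKO minus WT difference was 1.28 (SE 0.215) at diestrus and 0.37 (SE 0.248) at estrus. Between the stages, estrus minus diestrus, Il17ra differed by -0.66 (SE 0.232) in HIF2A cKO and by 0.25 (SE 0.232) in WT, and the stages overlapped in both genotypes. The HIF2A cKO difference was -0.48 without HIF2A cKO diestrus library 1 and -0.87 without library 3.

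Il17rc, the partner of the shared chain for IL-17A and IL-17F, was lower at estrus in both genotypes. It stood at 8.50, 7.07 and 6.75 FPKM in HIF2A cKO estrus libraries, against 16.7, 16.0, 15.5 and 12.1 FPKM in HIF2A cKO diestrus libraries. In WT it stood at 8.05, 6.67 and 6.86 FPKM at estrus, against 10.8, 13.0, 11.6 and 9.88 FPKM at diestrus. The stages did not overlap in either genotype, and the estrus minus diestrus difference was -0.93 (SE 0.119) in HIF2A cKO and -0.59 (SE 0.119) in WT. At diestrus the HIF2A cKO minus WT difference was 0.38 (SE 0.110), and the groups overlapped, since HIF2A cKO library 4 lay below WT library 2.

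Il17re, which pairs with the shared chain to bind IL-17C, varied least between the groups. It stood at 9.10, 9.19 and 8.66 FPKM in HIF2A cKO estrus libraries, against 8.59, 8.71, 5.56 and 7.32 FPKM in HIF2A cKO diestrus libraries. In WT it stood at 9.64, 8.90 and 8.57 FPKM at estrus, against 8.25, 7.16, 3.19 and 6.61 FPKM at diestrus. The lowest library in each diestrus group was the one numbered 3, and WT estrus did not overlap WT diestrus. The estrus minus diestrus difference was 0.24 (SE 0.219) in HIF2A cKO and 0.52 (SE 0.219) in WT. In WT, blocking on the replicate number gave 0.33 (SE 0.0996), and leaving out both libraries numbered 3 gave 0.27 (SE 0.0874). At diestrus the HIF2A cKO minus WT difference was 0.27, with an SE of 0.203, or of 0.0891 with the block.

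The levels of Il17re moved with those of epithelial markers in the diestrus libraries. The 10 epithelial markers summed to 1074, 1165, 615 and 878 FPKM in HIF2A cKO diestrus libraries 1 to 4 and to 720, 683, 513 and 572 FPKM in WT diestrus libraries, so the libraries lowest in Il17re were also lowest in these markers. At estrus the sums were 1518 to 1714 FPKM in HIF2A cKO and 1203 to 1463 FPKM in WT. None of the 10 markers was at 0. In whole tissue, fewer cells of a type and less RNA per cell cannot be told apart, and the part of epithelial content in the Il17re values was not tested.

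Il17rd, the inhibitory member, was higher at estrus in both genotypes. It stood at 9.09, 10.0 and 9.76 FPKM in HIF2A cKO estrus libraries, against 3.30, 3.52, 5.77 and 3.49 FPKM in HIF2A cKO diestrus libraries. In WT it stood at 9.24, 11.0 and 9.37 FPKM at estrus, against 5.15, 4.02, 5.39 and 5.53 FPKM at diestrus. The stages did not overlap in either genotype. The estrus minus diestrus difference was 1.11 (SE 0.146) in HIF2A cKO and 0.86 (SE 0.146) in WT. At diestrus 3 of the 4 HIF2A cKO libraries lay below all WT libraries and library 3 lay above all of them, and the difference was -0.28 (SE 0.135). It was -0.43 (SE 0.0946) without HIF2A cKO library 3 and -0.40 without both libraries numbered 3.

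**Figure D1:**
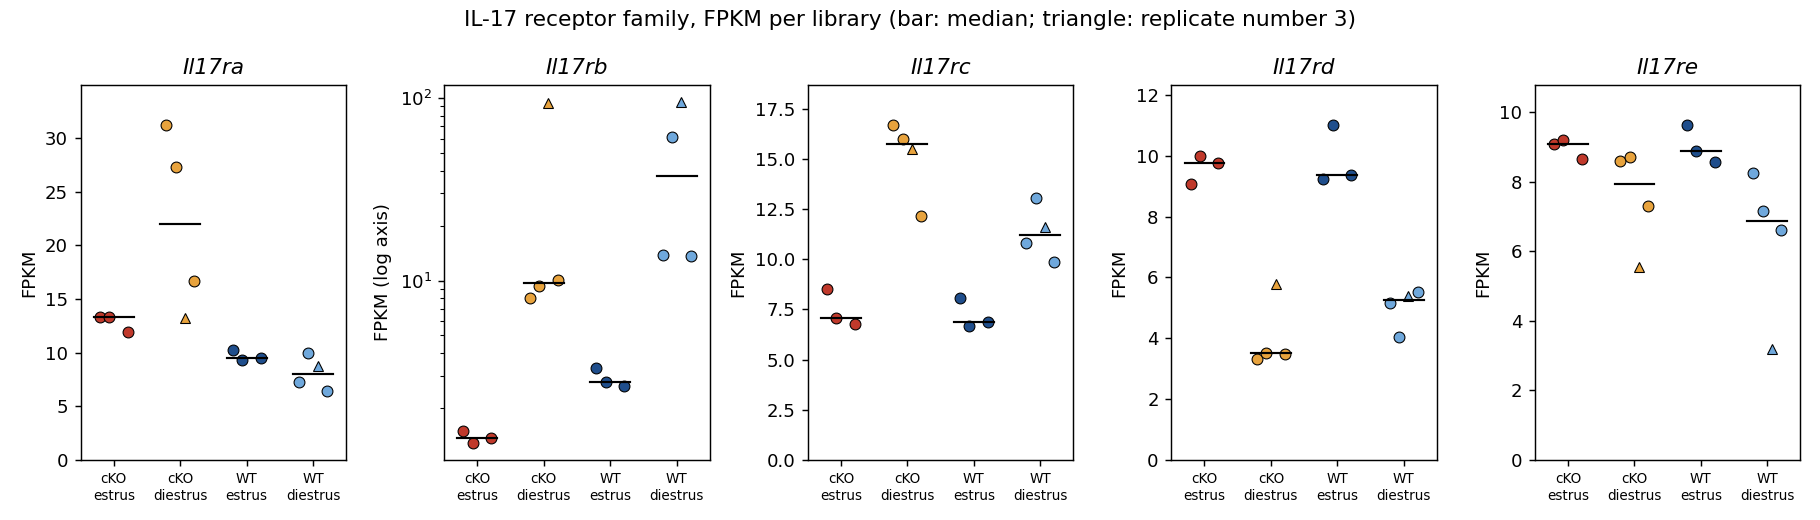
FPKM of each receptor gene (vertical axis, logarithmic for Il17rb and starting at 0 for the others) in the 14 libraries by group; each symbol is a library, triangles are the libraries numbered 3 and bars are group medians. Il17rb and Il17rc were lower and Il17rd higher at estrus in both genotypes, and Il17ra was higher in HIF2A cKO than in WT, with its highest value, 31.2 FPKM, in a HIF2A cKO diestrus library.

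The plot of levels by group shows that the order of the 5 receptors differed between groups. In all 4 WT diestrus libraries Il17rb was the most abundant of the 5 and Il17rc came next. In HIF2A cKO diestrus libraries 1, 2 and 4 Il17ra came first and Il17rc next, and in library 3 Il17rb came first. At estrus Il17rb was the lowest of the 5 in all 6 libraries, and Il17ra was the highest in all but WT library 2, where Il17rd was. The other 4 receptors lay between 6.67 and 13.3 FPKM at estrus, where the levels of Il17rd and Il17re overlapped in each genotype. At diestrus the levels of Il17ra and Il17rc overlapped in HIF2A cKO, and those of Il17ra and Il17re in WT. Il17rb made up 3.60%, 3.16% and 3.59% of the summed FPKM of the family in HIF2A cKO estrus libraries, against 11.9%, 14.4%, 70.2% and 20.3% in HIF2A cKO diestrus libraries. In WT it made up 8.20%, 7.19% and 7.11% at estrus, against 30.5%, 64.2%, 76.7% and 32.5% at diestrus. The ratio of Il17rb to its partner Il17ra was 0.258, 0.343, 7.10 and 0.606 in HIF2A cKO diestrus libraries, against 1.90, 6.17, 10.9 and 2.12 in WT diestrus libraries. Except in HIF2A cKO library 3, the ratio was below 1 in HIF2A cKO and above 1 in WT.

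Counted over the family, 4 of 5 receptors were past an adjusted p of 0.05 in limma, the threshold used throughout, between estrus and diestrus in HIF2A cKO, where 62.0% of all genes tested were. Of these, 1 was higher at estrus (25.5% of all genes) and 3 were lower (36.5%), and 3 of 5 did not overlap between the stages (63.1% of all genes). Il17ra lost its call in HIF2A cKO with the libraries compared alone. It also lost it without HIF2A cKO diestrus library 1 or 2, or HIF2A cKO estrus library 2 or 4. In WT, 3 of 5 were past the threshold (57.2% of all genes), 1 higher (23.0%) and 2 lower (34.1%), and 4 did not overlap (61.1%). The median difference of the 5 was -0.66 in HIF2A cKO and 0.25 in WT, against -0.08 and -0.09 over all genes. The choice of the family used these libraries, so nothing is read from these shares. With another scaling, by the median of ratios, the share of higher genes among all those past the threshold in WT was 50.7%, against 40.3%. No receptor past the threshold changed direction with it, and Il17re gained a call in WT, at 0.60 (SE 0.218). Il17re also gained that call with quantile scaling, with the replicate number as a block, without WT diestrus library 1 and without both libraries numbered 3.

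Between the genotypes at diestrus, 2 of 5 receptors, Il17ra and Il17rc, were past the threshold, where 23.9% of all genes were. Both were higher in HIF2A cKO (13.8% of all genes) and none was lower (10.0%), and 1 of 5 did not overlap (15.8%). Il17rc lost its call with the libraries compared alone and without both libraries numbered 3. It also lost it without HIF2A cKO diestrus library 1 or 2, or WT diestrus library 1 or 4. Il17rb and Il17rd gained a call without HIF2A cKO diestrus library 3, with or without WT library 3, and Il17re with the block. At estrus none of the 5 passed in limma (0.105% of all genes), none had an unadjusted p under 0.05, and 2 did not overlap (26.4%). Those were Il17ra, higher in HIF2A cKO, and Il17rb, lower in HIF2A cKO with a difference of -0.71 (SE 0.854). In a fit of the estrus libraries alone, whose spread is narrower, the SE was 0.0647 for Il17ra and 0.0865 for Il17rb. For Il17rc, Il17rd and Il17re the estrus differences were 0.04, -0.03 and -0.01.

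**Figure D2:**
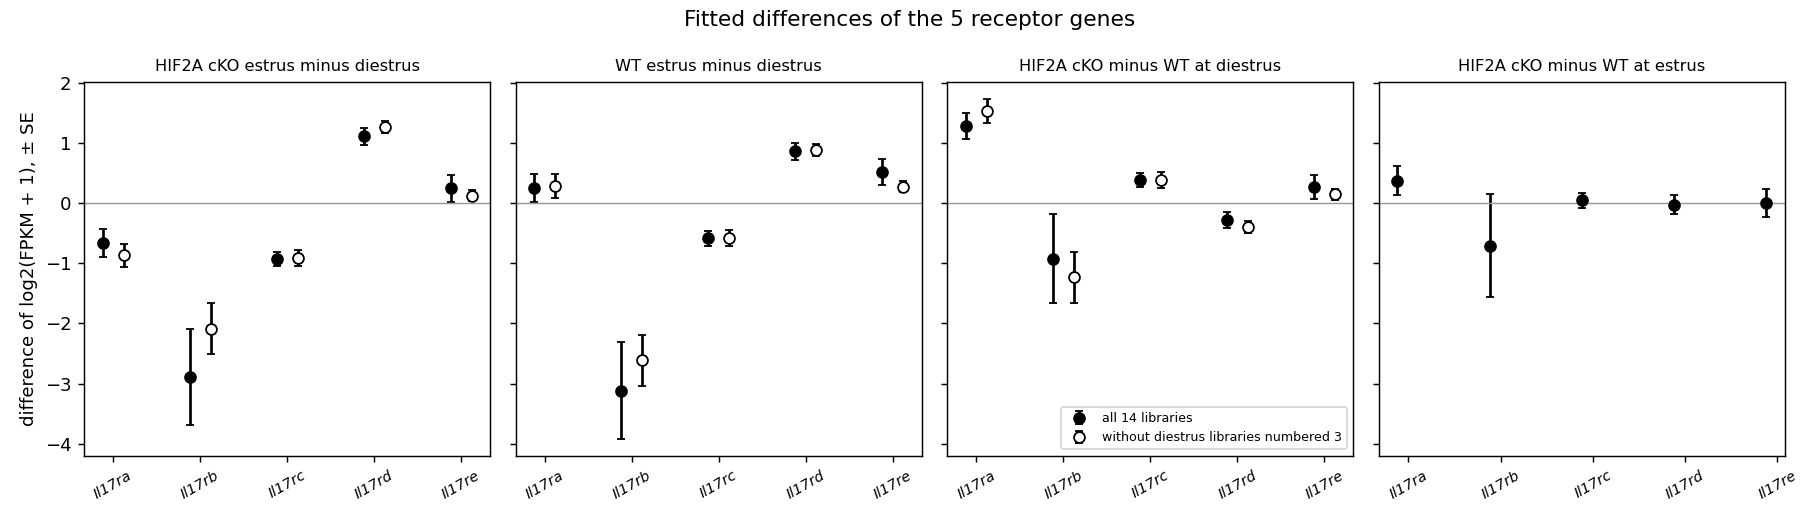
Fitted difference of log2(FPKM + 1) with its standard error (vertical axis) for the 5 receptors in 4 comparisons, from all 14 libraries (filled) and without the diestrus libraries numbered 3 (open, not drawn for the estrus comparison). Il17rb lies near -3 in both cycle comparisons with the widest error, and Il17ra lies at 1.28 in HIF2A cKO minus WT at diestrus.

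The cycle change was also set between the genotypes, as the estrus minus diestrus difference in HIF2A cKO minus that in WT. None of the 5 receptors passed in limma (0.0350% of all genes did), and 1 had an unadjusted p under 0.05. The values were -0.91 (SE 0.328) for Il17ra, 0.22 (SE 1.13) for Il17rb, -0.34 (SE 0.168) for Il17rc, 0.25 (SE 0.206) for Il17rd and -0.28 (SE 0.310) for Il17re. Without HIF2A cKO diestrus library 3 the Il17ra value was -1.12 (SE 0.263), and without both libraries numbered 3 it was -1.15 (SE 0.276). Il17ra passed the threshold in both of these fits. The plot of fitted differences shows that the error of Il17rb was several times that of the other receptors, so a genotype difference in its cycle change was not resolved at this spread.

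The spread of Il17rb lay in the diestrus libraries. Its SD on the log2 scale was 1.62 in HIF2A cKO diestrus and 1.40 in WT diestrus libraries, and only 0.329% and 0.462% of all genes tested had a larger one in those groups. At estrus the SD was 0.0611 in HIF2A cKO and 0.131 in WT. In the HIF2A cKO minus WT comparison at diestrus the difference was -0.93 (SE 0.740). It was -1.74 (SE 0.544) without HIF2A cKO diestrus library 3 and -1.23 (SE 0.424) without both libraries numbered 3. In the same comparison 2 of the 4 tested gland markers were lower in HIF2A cKO, where 10.0% of all genes tested were lower. These were Foxa2 at -1.61 (SE 0.347, adjusted p = 0.00852) and Cxcl15 at -2.06 (SE 0.583, adjusted p = 0.0249).

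Markers of other cells moved with Il17rb in the same diestrus libraries. The 7 gland markers, from the uterine glands that secrete into the lumen, summed to 23.1, 34.3, 121.9 and 40.6 FPKM in HIF2A cKO diestrus libraries 1 to 4 and to 77.5, 146.4, 160.8 and 67.9 FPKM in WT diestrus libraries. At estrus the sums were 30.8 to 39.8 FPKM in HIF2A cKO and 42.1 to 43.0 FPKM in WT. The 3 libraries highest in this sum were also the 3 highest in Il17rb. Among the gland markers, Cxcl15 was at 0.636, 2.32, 14.9 and 5.97 FPKM in HIF2A cKO diestrus libraries and at 14.3, 34.3, 33.9 and 8.68 FPKM in WT diestrus libraries. Foxa2 was at 0.698, 1.44, 6.88 and 2.11 FPKM in HIF2A cKO diestrus libraries and at 9.88, 9.12, 9.97 and 6.28 FPKM in WT diestrus libraries. In WT, Foxa2 was higher in library 1 than in library 2 while Il17rb was lower, so Foxa2 did not follow Il17rb there. Prss28 did not exceed 0.236 FPKM anywhere.

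Cytotoxic lymphocyte genes were high in the libraries numbered 3 but not in WT library 2. The 9 markers of T and NK cells summed to 8.02, 7.95, 54.8 and 8.61 FPKM in HIF2A cKO diestrus libraries, and to 10.5, 12.9, 105.9 and 11.5 FPKM in WT diestrus libraries. Gzma, a granule protease of these cells, reached 27.3 FPKM in HIF2A cKO library 3 and 56.0 FPKM in WT library 3, and was 1.24 to 2.52 FPKM in the other diestrus libraries. Of the CD3 chains of the T cell receptor complex, Cd3g was at 1.64, 1.34, 2.80 and 1.29 FPKM in HIF2A cKO diestrus libraries and at 2.19, 2.55, 6.29 and 2.39 FPKM in WT diestrus libraries, highest in those numbered 3, while Cd3e lay between 0.414 and 0.704 FPKM at diestrus. Lcn2, a secreted antimicrobial protein, ran the other way, at 492, 406, 74.7 and 160.5 FPKM in HIF2A cKO diestrus libraries and at 253, 20.3, 3.64 and 128 FPKM in WT diestrus libraries. The 6 endothelial markers summed to 196.7 FPKM in HIF2A cKO library 3 and 130.3 to 143.6 FPKM in the other HIF2A cKO diestrus libraries, and to 240.2 FPKM in WT library 3 and 125.4 to 146.4 FPKM in the other WT diestrus libraries. The 9 stromal markers summed to 2844 FPKM in HIF2A cKO library 3 and 2217 to 2374 FPKM in the others, and to 2899 FPKM in WT library 3, 2445 FPKM in WT library 2 and 2033 to 2206 FPKM in the others. None of the endothelial and stromal markers was at 0 in any library. The part of gland, lymphocyte, endothelial or stromal content or of the library in the Il17rb values was not tested. The labels give both high libraries the number 3 without saying what the number shares.

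**Figure D3:**
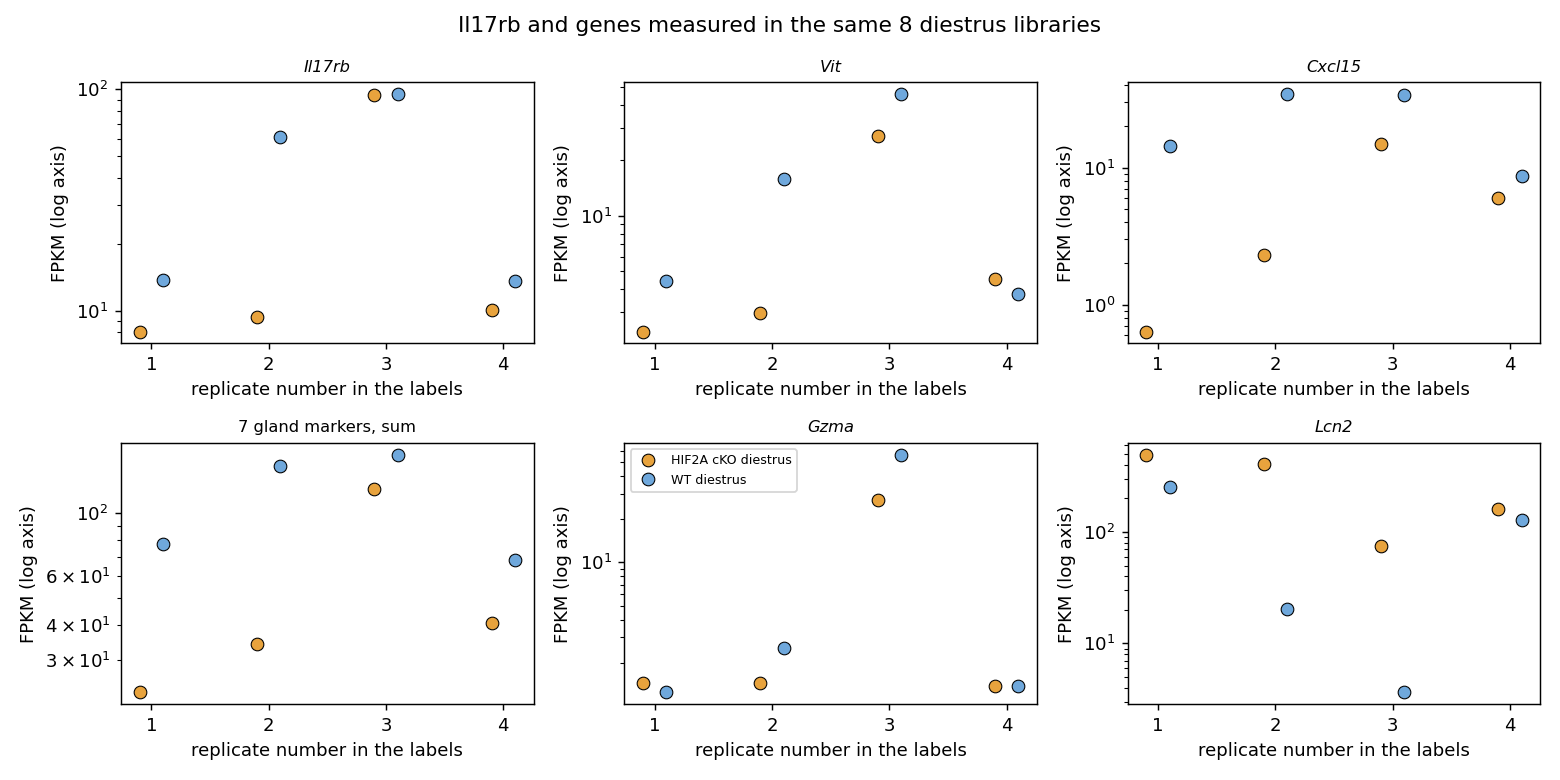
FPKM (logarithmic vertical axes) of Il17rb, Vit, Cxcl15, the sum of 7 gland markers, Gzma and Lcn2 in the 8 diestrus libraries, by the replicate number in the labels (horizontal axis); each point is a library. Il17rb was highest, at 94.3, 61.3 and 95.2 FPKM, in HIF2A cKO library 3 and WT libraries 2 and 3, which also had the highest gland sums, while Gzma was high in both libraries numbered 3.

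The genes flanking Il17rb did not share its range. Actr8, whose exons overlap it, had a difference between estrus and diestrus of 0.13 (SE 0.0644, adjusted p = 0.101) in HIF2A cKO and -0.01 (SE 0.0644, adjusted p = 0.938) in WT. Chdh fell at estrus by 0.74 in HIF2A cKO (SE 0.167, adjusted p = 0.00184) and by 0.64 in WT (SE 0.167, adjusted p = 0.00547), a smaller difference than that of Il17rb. The sources used here do not give the strand setting of the counting, so fragments in the shared 141 bases cannot be assigned to either gene.

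The genes most like each receptor were found as those with the smallest root mean square difference of centred log2(FPKM + 1) over the 14 libraries. For Il17rb they were Vit, which encodes vitrin of the extracellular matrix (0.407), Maob, monoamine oxidase B (0.566), Il13ra2, the decoy receptor for IL-13 (0.676), Map2 (0.677) and Slc6a2, the noradrenaline transporter (0.687). Vit stood at 0.557, 0.671 and 0.434 FPKM in HIF2A cKO estrus libraries, against 2.35, 2.97, 27.0 and 4.53 FPKM in HIF2A cKO diestrus libraries. In WT Vit stood at 0.863, 0.588 and 0.900 FPKM at estrus, against 4.45, 15.7, 45.5 and 3.78 FPKM at diestrus, with the same 3 diestrus libraries high as for Il17rb.

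The measure is not scaled by spread, and the other receptors varied less than Il17rb at diestrus. Their smaller differences therefore cannot be compared with those of Il17rb. For Il17ra the nearest genes were Cmklr1, a chemerin receptor (0.181), Insig1 (0.190) and Fdft1 (0.209), both genes of cholesterol synthesis and its control, Triobp (0.210) and Gdpd2 (0.221). For Il17rc they were Cenpt (0.0864), Rai1 (0.0979), Myo1c (0.110), Noc4l (0.113) and Pomgnt1 (0.114). For Il17rd they were Cnksr3 (0.0904), Kif1a (0.0912), Dpysl4 (0.0939), Akap13 (0.104) and Ntn4 (0.107). For Il17re they were Manr (0.134), Ap1m2, an adaptor subunit of epithelial cells (0.137), Tst (0.149), Slco3a1 (0.160) and Pla2g12a (0.162).

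Of the 6 ligands of the family, only Il17b and Il17d passed the filter on low values, and both rose at estrus in both genotypes. Il17b, a ligand of IL-17RB, stood at 11.0, 16.3 and 12.6 FPKM in HIF2A cKO estrus libraries, against 5.45, 3.70, 3.65 and 2.73 FPKM in HIF2A cKO diestrus libraries. In WT it stood at 11.5, 19.0 and 18.5 FPKM at estrus, against 3.44, 2.40, 3.05 and 3.32 FPKM at diestrus. The stages did not overlap, with a difference of 1.56 (SE 0.202, adjusted p = 2.81e-05) in HIF2A cKO and 2.08 (SE 0.202, adjusted p = 5.30e-06) in WT by limma. Il17b and its receptor Il17rb differed between the stages in opposite directions. The ratio of Il17b to Il17rb was 7.38 to 12.6 in HIF2A cKO estrus libraries, against 0.0387 to 0.676 in HIF2A cKO diestrus libraries. In WT it was 3.48 to 7.05 in estrus libraries, against 0.0320 to 0.249 in WT diestrus libraries.

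Il17d, a ligand of the family expressed outside lymphocytes, stood at 17.9, 16.0 and 15.7 FPKM in HIF2A cKO estrus libraries, against 7.10, 8.25, 7.19 and 7.96 FPKM in HIF2A cKO diestrus libraries. In WT it stood at 14.9, 14.9 and 13.5 FPKM at estrus, against 9.39, 7.46, 4.98 and 10.4 FPKM at diestrus. The difference was 1.02 (SE 0.167, adjusted p = 0.000172) in HIF2A cKO and 0.81 (SE 0.167, adjusted p = 0.00124) in WT, with no overlap between the stages. Neither ligand passed between the genotypes: the HIF2A cKO minus WT difference at diestrus was 0.25 (SE 0.187, adjusted p = 0.344) for Il17b and -0.03 (SE 0.155, adjusted p = 0.905) for Il17d.

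The ligands known from T cells and tuft cells were at or near 0. Il17a was listed at 0 in all 14 libraries and Il17f did not exceed 0.064 FPKM. Il25 did not exceed 0.067 FPKM at diestrus and was listed at 0 in all estrus libraries. Il17c, the ligand of the Il17ra and Il17re pair, was 0.258, 0.276 and 0.808 FPKM in HIF2A cKO estrus libraries and 0.031 to 0.169 FPKM in HIF2A cKO diestrus libraries, against 0 to 0.132 FPKM in WT estrus and 0 to 0.233 FPKM in WT diestrus libraries. Read counts were not used here, so no counting error can be given for these low values.

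**Figure D4:**
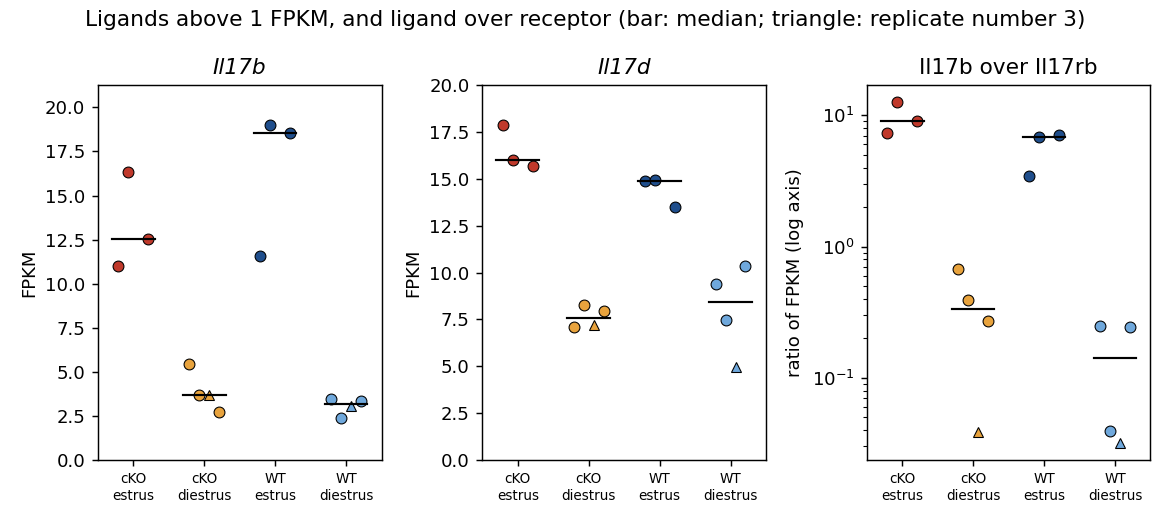
FPKM of Il17b and Il17d, and the ratio of Il17b to Il17rb on a logarithmic axis, in the 14 libraries by group; each symbol is a library, triangles are the libraries numbered 3 and bars are group medians. Both ligands were higher at estrus, and the ratio was above 3 in all estrus and below 1 in all diestrus libraries.

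Around the receptors, the pathway was described by 86 genes in lists of ligands, signalling proteins, inhibitors and induced genes, of which 64 passed the filter. In HIF2A cKO, 30 of the 64 rose and 8 fell at estrus, each past an adjusted p of 0.05, where 25.5% of all genes tested rose and 36.5% fell. In WT 30 rose and 7 fell, where 23.0% of all genes rose and 34.1% fell. The median difference was 0.35 in HIF2A cKO and 0.30 in WT, against -0.08 and -0.09 over all genes tested. The lists were drawn up with earlier results of these libraries known.

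Among 28 signalling genes, 9 rose and 7 fell at estrus in HIF2A cKO, and 11 rose and 6 fell in WT. Of all genes tested, 25.5% rose and 36.5% fell in HIF2A cKO, and 23.0% rose and 34.1% fell in WT. Nfkbiz, which encodes the NF-kB cofactor induced by IL-17A, rose by 1.83 in HIF2A cKO (SE 0.191, adjusted p = 5.12e-06) and by 1.52 in WT (SE 0.191, adjusted p = 3.69e-05). Srsf1, a splicing factor known to bind IL-17 target messages, fell by 1.31 in HIF2A cKO (SE 0.104, adjusted p = 5.71e-07) and by 0.95 in WT (SE 0.104, adjusted p = 1.25e-05). Ikbke, a kinase, rose by 0.95 in HIF2A cKO (SE 0.121, adjusted p = 2.36e-05). Traf3ip2, which encodes Act1, differed by -0.04 in HIF2A cKO (SE 0.0852, adjusted p = 0.697) and fell by 0.31 in WT (SE 0.0852, adjusted p = 0.00716). Traf6, which encodes the adaptor that Act1 recruits, rose by 0.29 in HIF2A cKO (SE 0.0699, adjusted p = 0.00276) and by 0.28 in WT (SE 0.0699, adjusted p = 0.00422). Traf3ip2 and Traf6 were named after their values were seen.

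Cebpb, the C/EBP factor downstream of IL-17 receptors, had the largest genotype difference at diestrus of the signalling genes past the threshold. It averaged 52.6 ± 7.74 FPKM in HIF2A cKO estrus (SD, n = 3) and 34.8 ± 12.3 FPKM in HIF2A cKO diestrus (SD, n = 4), against 41.8 ± 6.57 FPKM in WT estrus (SD, n = 3) and 10.6 ± 2.11 FPKM in WT diestrus (SD, n = 4). The HIF2A cKO minus WT difference at diestrus was 1.58 (SE 0.208, adjusted p = 0.00222 in limma). At estrus in WT it rose by 1.88 (SE 0.225, adjusted p = 2.52e-05).

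Among 16 inhibitors of the pathway, 8 rose and 1 fell at estrus in HIF2A cKO, and 7 rose and none fell in WT. Of all genes tested, 25.5% rose and 36.5% fell in HIF2A cKO, and 23.0% rose and 34.1% fell in WT. Zc3h12a, an RNase that degrades IL-17 induced messages, averaged 12.3 ± 4.75 FPKM in HIF2A cKO estrus (SD, n = 3) and 1.92 ± 0.737 FPKM in HIF2A cKO diestrus (SD, n = 4), against 6.75 ± 1.43 FPKM in WT estrus (SD, n = 3) and 1.32 ± 0.200 FPKM in WT diestrus (SD, n = 4). Its estrus minus diestrus difference was 2.17 in HIF2A cKO (SE 0.231, adjusted p = 5.77e-06) and 1.73 in WT (SE 0.231, adjusted p = 5.70e-05). Tnfaip3, the ubiquitin-editing enzyme A20, rose by 1.95 in HIF2A cKO (SE 0.157, adjusted p = 6.70e-07) and 1.26 in WT (SE 0.157, adjusted p = 3.37e-05). Usp18, a protease, rose by 1.85 in HIF2A cKO (SE 0.172, adjusted p = 2.11e-06) and 1.35 in WT (SE 0.172, adjusted p = 4.01e-05).

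Of 36 genes known to be induced by IL-17 cytokines, 18 passed the filter. Of these, 11 rose and none fell at estrus in HIF2A cKO, where 25.5% of all genes tested rose and 36.5% fell. In WT 10 rose and 1 fell, where 23.0% of all genes rose and 34.1% fell. Lcn2 rose by 4.80 in HIF2A cKO (SE 1.09, adjusted p = 0.00193) and 6.59 in WT (SE 1.09, adjusted p = 0.000264). Pigr, which carries antibodies across epithelium, averaged 413 ± 60.3 FPKM in HIF2A cKO estrus (SD, n = 3) and 35.2 ± 7.06 FPKM in HIF2A cKO diestrus (SD, n = 4), against 441 ± 44.5 FPKM in WT estrus (SD, n = 3) and 43.2 ± 27.6 FPKM in WT diestrus (SD, n = 4). Ccl28, a mucosal chemokine, rose by 3.39 in HIF2A cKO (SE 0.648, adjusted p = 0.000572) and 2.77 in WT (SE 0.648, adjusted p = 0.00288). The gene that fell in WT was Steap4, a metalloreductase, by 2.15 (SE 0.790, adjusted p = 0.0333). Beside these counts, epithelial markers also rose at estrus, 8 of 10 in HIF2A cKO and 9 of 10 in WT, as did 7 of 8 macrophage markers and 3 of 5 neutrophil markers in each genotype. Among the remaining neutrophil markers S100a8 and S100a9 did not pass, and Cxcr2, Elane, Ngp and Camp did not exceed 0.365 FPKM in any library. Of 7 eosinophil and mast cell markers, 5 rose in HIF2A cKO and 6 in WT. The part of these cells in the levels was not tested.

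Between the genotypes at diestrus 3 of the 64 pathway genes were higher and 1 was lower in HIF2A cKO, where 13.8% of all genes tested were higher and 10.0% lower. Beside Cebpb these were Ccl7, a monocyte chemokine, at 1.34 (SE 0.390, adjusted p = 0.0281), Traf2, an adaptor, at 0.19 (SE 0.0557, adjusted p = 0.0278), and Mmp3, a matrix protease, which was lower, at -1.70 (SE 0.438, adjusted p = 0.0169). Cebpb passed whichever diestrus library was left out. The other 3 each lost the call without HIF2A cKO diestrus library 1 and without library 2, when the count of pathway genes was 1. The count was 2 without WT diestrus library 1 or 4, and 9 without HIF2A cKO diestrus library 3. With the replicate number as a block the count was 8, and among the genes named Lcn2 was then higher in HIF2A cKO by 2.39 (SE 0.622, adjusted p = 0.0164) and Ikbke lower, at -0.20 (SE 0.0661, adjusted p = 0.0444). At estrus none of the 64 passed in limma (0.105% of all genes did), with 10 at an unadjusted p under 0.05, and for the genotype difference in the cycle change none passed (0.0350% of all genes did), with 5 at an unadjusted p under 0.05. With the block 2 passed there, Cebpb at -1.25 (SE 0.257, adjusted p = 0.0378) and Ikbke at 0.54 (SE 0.101, adjusted p = 0.0308).

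**Figure D5:**
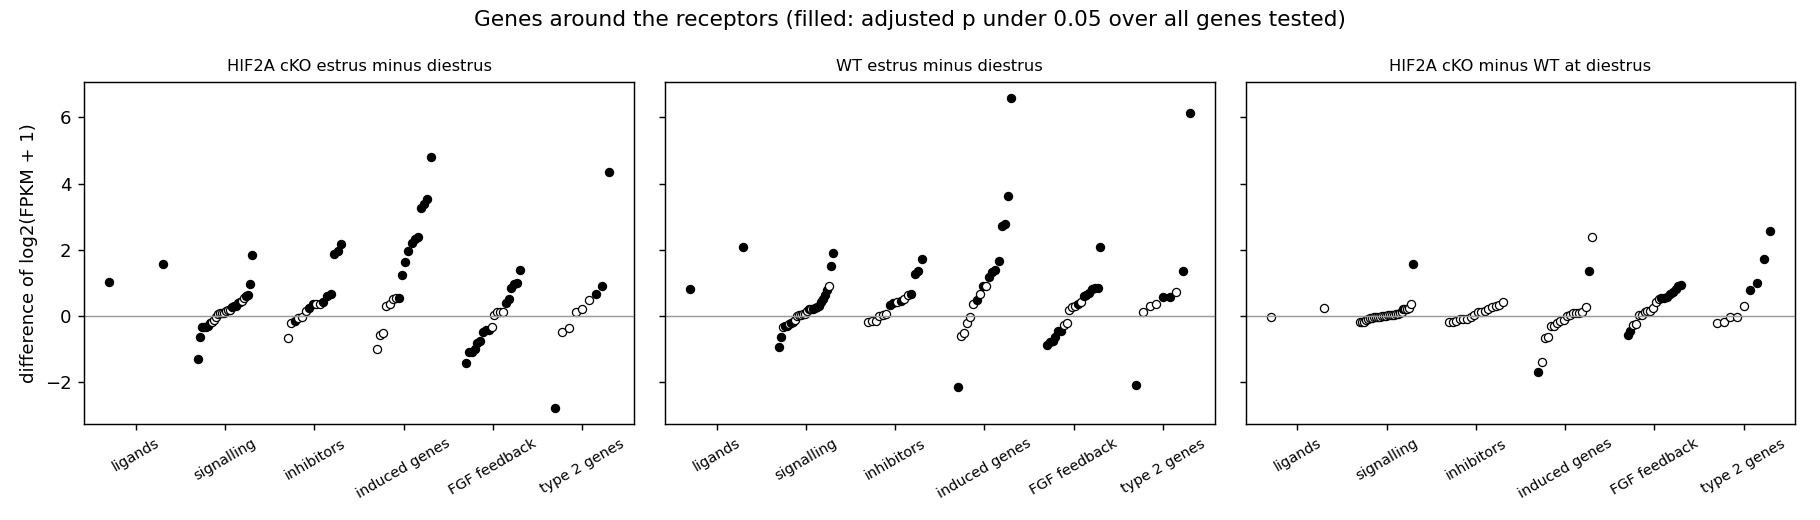
Difference of log2(FPKM + 1) (vertical axis) of every tested gene of 6 lists around the receptors in 3 comparisons, each point a gene, filled where the adjusted p was under 0.05 over all genes. At estrus the induced genes lay mostly above 0, up to 6.59 for Lcn2 in WT, while between the genotypes at diestrus most points were open.

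IL-25 signalling through IL-17RB is known for type 2 immunity, and 9 of 18 genes of that response passed the filter. At estrus 3 rose and 1 fell in HIF2A cKO, where 25.5% of all genes tested rose and 36.5% fell. In WT 4 rose and 1 fell, where 23.0% of all genes rose and 34.1% fell. Arg1, arginase 1, averaged 302 ± 81.0 FPKM in HIF2A cKO estrus (SD, n = 3) and 17.3 ± 13.2 FPKM in HIF2A cKO diestrus (SD, n = 4), against 172 ± 34.5 FPKM in WT estrus (SD, n = 3) and 1.48 ± 0.554 FPKM in WT diestrus (SD, n = 4). Dclk1, a marker of tuft cells in the gut, fell at estrus by 2.80 in HIF2A cKO (SE 0.201, adjusted p = 2.67e-07) and by 2.09 in WT (SE 0.201, adjusted p = 4.70e-06). The tuft cell genes Pou2f3 and Trpm5 were below the filter. Pou2f3 was at 0.280 to 0.382 FPKM in HIF2A cKO estrus and 0.0990 to 0.230 FPKM in HIF2A cKO diestrus, and at 0.255 to 0.372 FPKM in WT estrus and 0.132 to 0.222 FPKM in WT diestrus, so that it was not lower at estrus as Dclk1 was. Trpm5 did not exceed 0.316 FPKM in any library. Il33, an alarmin, differed at estrus by -0.38 in HIF2A cKO (SE 0.390, adjusted p = 0.414) and rose by 1.34 in WT (SE 0.390, adjusted p = 0.0105). The genotype difference in that change, -1.73, did not pass (SE 0.552, adjusted p = 0.170).

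In the genotype comparison at diestrus 4 of these 9 genes were higher in HIF2A cKO and none was lower, where 13.8% of all genes tested were higher and 10.0% lower. Arg1 was higher by 2.57 (SE 0.452, adjusted p = 0.00442), Ccl11, the chemokine eotaxin, by 1.73 (SE 0.328, adjusted p = 0.00581), and Il4ra, the receptor chain shared by IL-4 and IL-13, by 0.99 (SE 0.230, adjusted p = 0.0113). The remaining gene, Dclk1, averaged 48.2 ± 5.64 FPKM in HIF2A cKO diestrus and 28.9 ± 10.0 FPKM in WT diestrus (SD, n = 4 each). Pou2f3 averaged 0.135 FPKM in HIF2A cKO diestrus and 0.162 FPKM in WT diestrus, and Trpm5 averaged 0.0737 FPKM in HIF2A cKO diestrus and 0.226 FPKM in WT diestrus. Of 7 tested markers of eosinophils and mast cells, 3 were lower in HIF2A cKO at diestrus and 4 did not pass. The mast cell genes Cma1, Mcpt4 and Cpa3 were lower, while Tpsb2, also a mast cell gene, did not pass. The eosinophil genes Ccr3, at 0.12 (SE 0.102, adjusted p = 0.426), and Siglec5, at 0.06 (SE 0.125, adjusted p = 0.735), also did not pass.

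Il17rd was set beside 20 tested genes of FGF signalling and its feedback. In HIF2A cKO 6 rose and 9 fell at estrus, where 25.5% of all genes tested rose and 36.5% fell. In WT 8 rose and 6 fell, where 23.0% of all genes rose and 34.1% fell. Dusp4, a phosphatase of MAP kinases, rose by 1.38 in HIF2A cKO (SE 0.161, adjusted p = 1.20e-05) and by 2.09 in WT (SE 0.161, adjusted p = 7.69e-07). In HIF2A cKO, Fgfr2, an FGF receptor, rose by 1.00 (SE 0.129, adjusted p = 2.79e-05) and Flrt2 fell by 1.00 (SE 0.198, adjusted p = 0.000747). In WT, Dusp6, a phosphatase of ERK, rose by 0.85 (SE 0.178, adjusted p = 0.00139) and Fgfrl1 by 0.84 (SE 0.141, adjusted p = 0.000311).

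At diestrus 8 of these 20 genes were higher and 2 were lower in HIF2A cKO than in WT, where 13.8% of all genes tested were higher and 10.0% lower. Dusp6 averaged 29.9 ± 6.69 FPKM in HIF2A cKO diestrus and 16.6 ± 3.37 FPKM in WT diestrus (SD, n = 4 each), a difference of 0.80 (SE 0.165, adjusted p = 0.00713). Spry2, a Sprouty inhibitor induced by FGF, was higher by 0.73 (SE 0.164, adjusted p = 0.0100) and Fgfr2 was lower, at -0.57 (SE 0.120, adjusted p = 0.00767). Spry4, of the same family and chosen after its values were seen, was higher by 0.55 (SE 0.121, adjusted p = 0.00924).

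Most markers of lymphocytes that make IL-17 were below the filter on low values. Of 11 such markers, 10 were in the table and 3 passed the filter. Sox13 and Ltb rose at estrus in both genotypes, where 25.5% of all genes tested rose in HIF2A cKO and 23.0% in WT. The other tested marker, Cd3g, did not pass. Cd3g averaged 1.85 FPKM in HIF2A cKO estrus and 1.77 FPKM in HIF2A cKO diestrus, and 2.50 FPKM in WT estrus and 3.35 FPKM in WT diestrus. Sox13 averaged 43.5 FPKM in HIF2A cKO estrus and 30.1 FPKM in HIF2A cKO diestrus, and 37.5 FPKM in WT estrus and 24.2 FPKM in WT diestrus. At diestrus Sox13 was past the threshold as higher in HIF2A cKO, as were 13.8% of all genes tested. Il23r did not exceed 0.219 FPKM and Ccr6 did not exceed 0.203 FPKM in any library, and Il17a, the defining product of these cells, was listed at 0 throughout.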

How the data were processed

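The authors deposited a single table of FPKM values per gene symbol for 14 libraries. Per the submitters' processing notes the tools were TopHat2 2.0.4 and Cufflinks 2.0.2 with the build mm10. The sources used here do not give the annotation, the strand setting or whether libraries were scaled to each other. Read counts were not used, so the absolute depth is unknown and low values are the least precise. An exact 0 can be a failed estimate. For this reason 11 genes (4 of them small RNAs) were left out because a group was listed wholly at 0 while another averaged 50 FPKM or more. FPKM divides by the library total, so abundant genes lower the others.

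The filter of 1 FPKM or more in 3 or more libraries kept 14278 genes. On log2(FPKM + 1), R 4.3.3 and limma 3.58.1 fitted group means to all 14 libraries together with a mean-variance trend, and p-values were adjusted over all genes tested by Benjamini-Hochberg, with a threshold of 0.05. On this scale differences of genes with low FPKM are understated. The fit was tested on simulated data. Groups and replicate numbers came from the labels. Cycle differences are estrus minus diestrus and genotype differences are HIF2A cKO minus WT. The comparisons within a stage or genotype share libraries with each other.

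The members and the gene lists were chosen with earlier results of these data known. The genes named were the 5 receptors, every ligand, the 3 largest changes past the threshold per list and comparison averaging 5 FPKM or more in the higher group, the 5 genes most like each receptor (numbered gene models, RIKEN clones and small RNAs left out), Epas1, and markers that moved with a receptor. Genes named outside this rule (Actr8, Chdh, Steap4, Traf3ip2, Traf6, Spry4, Sox13, Ltb, Il23r, Ccr6, Cd3g, Pou2f3, Trpm5, Cma1, Mcpt4, Cpa3, Tpsb2, Ccr3, Siglec5, S100a8, S100a9, Cxcr2, Elane, Ngp, Camp and Dclk1 at diestrus) were chosen after their values were seen. A further marker on the list for lymphocytes that make IL-17 is not reported here and was left out of its counts.

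The labels give the groups shared replicate numbers without saying what a number shares. The residuals of same-numbered diestrus libraries of the 2 genotypes correlated at r = 0.321, 0.115, 0.622 and 0.217. Those of the estrus libraries correlated at 0.0805, 0.0958 and -0.0475. Differently numbered libraries were not compared in this way, and library 3 stood apart in both genotypes at diestrus. The correlations therefore do not show that a shared number means a pair. The main fit held no term for the replicate number, and a block on it was run as an alternative. Alternatives were pseudocounts of 0.1 and 5, no filter or a filter of 5 FPKM, median-of-ratios and quantile scaling, the libraries compared alone, eBayes without trend, the genes listed at 0 kept, the replicate number as a block, and each library left out. Leaving out both diestrus libraries numbered 3, and a block within diestrus alone, were chosen after the data were seen. Gene coordinates are from GENCODE M21 and upstream sequences from RefSeq.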

Additional observations from a re-analysis of the deposited data

Results flagged for a closer look

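Among 45 groups of 4 libraries screened for a library far from the rest, 2 receptor values were flagged, both in the same library. For independent groups the limit used flags about 1 in 20 by chance. The groups screened here share libraries, so the number of flags cannot be weighed against that rate. What set this library apart was not tested. Il17rb was 94.3 FPKM in HIF2A cKO diestrus replicate 3, against 8.06 to 10.1 FPKM in the other HIF2A cKO diestrus libraries, a gap of 0.976 of the range of the group. Il17rd was 5.77 FPKM in the same library, against 3.30 to 3.52 FPKM in the others, a gap of 0.912 of the range. Both gaps exceed the Dixon limit for 4 libraries. In WT diestrus no receptor value stood as far from the rest, and Il17rb was high in replicates 2 and 3.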

How the results depend on the processing

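No fitted difference of a receptor past the threshold changed direction under any alternative run. Counts of receptors are given as a description, since these libraries chose the family. The shares of all genes past the threshold given above come from the main fit. None was taken for the libraries compared alone, the block or the fits with libraries left out. The counts from those fits therefore have no share to be set against. The counts for the cycle comparisons stayed within 1.5 times those reported, 38 pathway genes and 4 receptors in HIF2A cKO and 37 and 3 in WT. With the libraries compared alone, the pathway count was 1 and the receptor count 1 at diestrus, and both counts were 2 at estrus. With the replicate number as a block the pathway count was 8 at diestrus and 2 for the genotype difference in the cycle change. Beside Il17re, the block changed no other receptor call. Without both diestrus libraries numbered 3, chosen after the data were seen, these counts were 7 and 3. The cycle change then had 1 receptor past the threshold, Il17ra. Leaving out each library in turn gave 1 to 9 pathway genes and 1 to 4 receptors at diestrus, and 0 to 3 pathway genes and 0 to 1 receptors for the cycle change. The cause was not tested. Groups of 3 and 4 libraries and the unknown depth limit the precision, most of all for Il17rb at diestrus and for ligands near 0.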
